A study of Homo sapiens with 6 samples.

Results

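Keratin genes were examined in AGS, a cell line from a human gastric adenocarcinoma, cultured with vehicle or saikosaponin-D (SSD), a triterpenoid saponin of *Radix Bupleuri*. The members are the rows of the deposited table whose gene name is KRT followed by a digit, which gave 7 of its 1099 genes. Both groups were wild type and had 3 libraries each. The labels give an agent at 10 uM and a culture time of 24 h, but their protocol fields call the agent L14-8 and the cells C4-2B, a prostate cancer line, whereas the labels of each sample give AGS and SSD. The methods of the study state another dose than the labels, so the dose is not settled. The column headers of the deposited values name AGS and hold the number 10, as the labels' dose does. They name the treated group by a number that also occurs in L14-8, and not as SSD. That this group is SSD was inferred, as the labels have no other treated group. The labels do not say whether the libraries came from separate cultures, so the spread between them may be technical.

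The table itself was selected on the comparison of SSD with vehicle: no gene in it has an authors' p-value of 0.05 or more. The members were therefore chosen by the contrast that is described here, and their differences between the groups are given as a description. Where the text says that a keratin passed or missed the threshold of the fit on the whole table, this describes the fit and supports nothing. Of 55 protein-coding keratin genes in GENCODE release 29, 48 are outside the table and were not analysed here. For those genes no level, and no statement of change or of stability, can be given.

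Keratins are the intermediate filament proteins of epithelial cells. Each filament is built from pairs of an acidic type I and a basic or neutral type II keratin, and the pairs used differ between simple, stratified and hair-forming epithelia. Gland-like cells of the stomach are known for the simple-epithelial keratins KRT8, KRT18 and KRT19, none of which is in the table. The type I members were KRT17, induced in stratified epithelium by injury and stress, and KRT13, a keratin of the layers above the basal one in wet stratified epithelium such as oesophagus. The type II members were KRT80, a keratin of differentiating epithelia, KRT81, a hair keratin, KRT75, a keratin of the hair follicle, and KRT6A and KRT6B, the wound- and stress-induced partners of KRT16 and KRT17.

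By the coordinates of GENCODE release 29 (GRCh38), all 7 genes lie on the minus strand in the family's 2 clusters. On chromosome 17 are KRT13 (41500981 to 41505705) and KRT17 (41619441 to 41624842). On chromosome 12 are KRT80 (52168996 to 52192000), KRT81 (52285913 to 52291534), KRT75 (52424070 to 52434525), KRT6B (52446651 to 52452126) and KRT6A (52487174 to 52493257). KRT75 and KRT6B are neighbours in the table, with gene starts 17601 bases apart. Of the 1085 table genes matched to GENCODE, 2 outside the family start within 1 Mb of a member: DAZAP2 was higher under SSD, with a log2 difference of 0.27 (SE 0.0506), and PFDN5 had a value of -0.11 (SE 0.0595), which did not pass the test used for the whole table below.

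Several members have near-identical copies, and reads from such stretches cannot be placed by sequence alone. The coding sequence of KRT6B was 97.52% identical to that of KRT6A and 98.52% identical to that of KRT6C, another KRT6 gene, which is outside the table. The coding sequence of KRT81 was 89.46% identical to that of KRT86, also outside the table. The 60 coding bases where the copies differ most are shown for each set, from the GENCODE transcripts. In the KRT6 genes they are coding bases 664 to 723, with capitals at the 9 positions where KRT6A and KRT6B differ.

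KRT6A: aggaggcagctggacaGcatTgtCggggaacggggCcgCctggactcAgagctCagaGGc
KRT6B: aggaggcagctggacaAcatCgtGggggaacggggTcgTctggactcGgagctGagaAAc
KRT6C: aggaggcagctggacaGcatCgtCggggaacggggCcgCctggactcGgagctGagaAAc

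In the hair keratins they are coding bases 1330 to 1389 of KRT81 and 1333 to 1392 of KRT86, with capitals at the 24 positions that differ.

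KRT81: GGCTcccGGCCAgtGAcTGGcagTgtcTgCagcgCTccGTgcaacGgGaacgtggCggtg
KRT86: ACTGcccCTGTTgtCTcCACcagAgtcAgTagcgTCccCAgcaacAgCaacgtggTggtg

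Of all 100-base stretches of their transcripts, 29.74% in KRT81, 24.64% in KRT6B and 13.56% in KRT6A also occurred in another gene on the same strand, mostly KRT86 for the first and KRT6C for the KRT6 genes. KRT6A and KRT6B also shared stretches with each other, 10.81% of those of KRT6B and 7.943% of those of KRT6A. The levels of KRT6A and KRT6B may thus not be independent. In KRT17 the share found in another gene on the same strand was 0.147%, and in KRT80, KRT75 and KRT13 it was 0%. KRT13 and KRT75 instead shared 8.947% and 5.708% of their stretches with an overlapping gene on the opposite strand, and whether the authors' counting used strand is not given in the sources used here. Of the 6 estimated counts of each gene, 6 were within 0.005 of a whole number in KRT13 and in KRT75, 4 in KRT17, 2 in KRT80 and 0 in KRT81, KRT6A and KRT6B. Counts that were not whole thus also occurred in KRT80, which shared no stretch. The levels of KRT81, KRT6A and KRT6B are therefore uncertain to the extent that reads were split with their copies.

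Levels are given in TPM, the share of reads corrected for gene length and scaled by the authors to the same total over all genes of a library, so that they can be compared between genes. Among the type I keratins, KRT17 had the highest level of the family, with 174.5, 163.65 and 157.52 TPM in vehicle replicates 1, 2 and 3 and 137.46, 152.48 and 141.59 TPM in SSD replicates 1, 2 and 3. The groups did not overlap, although the lowest vehicle and the highest SSD library lay only 5.04 TPM apart. KRT13 stood at 23.73, 26.08 and 29.27 TPM with vehicle, against 10.87, 11.07 and 10.26 TPM with SSD. Its 3 SSD libraries lay close together, at 10.7 ± 0.422 TPM (SD, n = 3), against 26.4 ± 2.78 TPM (SD, n = 3) under vehicle.

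Among the type II keratins, KRT80 was the most abundant, with 139.39, 143.54 and 151.95 TPM with vehicle, against 92.37, 100.95 and 99.89 TPM with SSD. KRT81 stood at 24.71, 23.82 and 23.73 TPM with vehicle, against 9.04, 11.53 and 11.72 TPM with SSD. Both genes were separated between the groups by more than the spread within either. KRT75 stood at 4.68, 4.52 and 5.0 TPM with vehicle, against 2.28, 2.62 and 2.62 TPM with SSD, which rested on 106 to 137 estimated counts per vehicle library and 50 to 58 per SSD library.

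The KRT6 genes differed from the other members in their spread under SSD. KRT6B stood at 10.7, 10.56 and 10.31 TPM with vehicle, against 5.75, 6.75 and 9.39 TPM with SSD. KRT6A stood at 4.2, 4.61 and 3.77 TPM with vehicle, against 1.96, 2.51 and 3.42 TPM with SSD. In both, SSD replicate 1 was the lowest and SSD replicate 3 came close to the vehicle libraries, with a gap of 0.92 TPM for KRT6B and 0.35 TPM for KRT6A. The coefficient of variation under SSD was 25.8% for KRT6B and 28.0% for KRT6A, against 3.93% for KRT13, 4.79% for KRT80, 5.39% for KRT17, 7.83% for KRT75 and 13.9% for KRT81. KRT6A rested on 30.16 to 144.43 estimated counts per library, with the lowest mean of the family, 75.0, against 88.5 for KRT75.

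**Figure D1:**
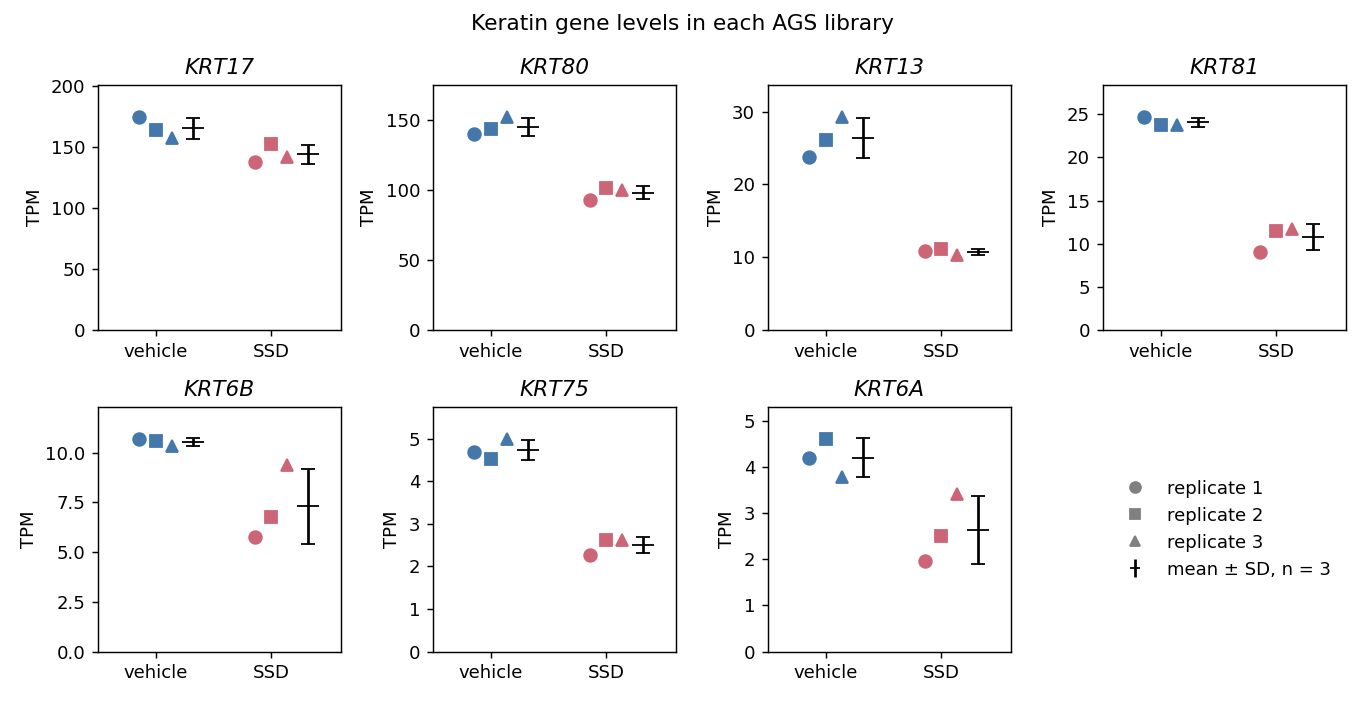
TPM (vertical axis, starting at 0, scaled per gene) of the 7 keratin genes in each vehicle (blue) and SSD (red) library, with symbols for the replicate number and black bars for the mean ± SD (n = 3). Every SSD point lies below every vehicle point of its gene, and the SSD points of KRT6B and KRT6A are the most spread.

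The order of the levels was the same at the top in both groups. Under vehicle KRT17, at 165 ± 8.60 TPM (SD, n = 3), and KRT80, at 145 ± 6.40 TPM (SD, n = 3), stood far above the rest. KRT13 and KRT81 followed, with a vehicle mean of 24.1 ± 0.542 TPM (SD, n = 3) for KRT81, and these neighbours overlapped between libraries. KRT6B came next, and KRT75 and KRT6A, the lowest, overlapped with each other. Under SSD KRT13 and KRT81 again overlapped, with means of 10.7 and 10.8 TPM, and KRT6A and KRT75 also overlapped, with means of 2.63 and 2.51 TPM. KRT6B, at 7.30 ± 1.88 TPM (SD, n = 3), overlapped with KRT81 there, since its highest SSD library, at 9.39 TPM, lay above the lowest of KRT81, at 9.04 TPM.

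Of the 7 keratins, 7 had all SSD libraries below all vehicle libraries, as had 44.2% of the genes of the table. The fits were made on the whole table with edgeR's quasi-likelihood method, on a scale taken from each library's ratio of counts to TPM, and give log2 differences of SSD over vehicle. The adjusted p was below 0.05 in the lower direction for 7 of the 7 keratins and for 53.0% of the table, and in the higher direction for 0 keratins and for 35.2% of the table. Since the table and its keratins were selected on this contrast, nothing is read from these counts.

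The size of the difference varied widely within the family. KRT13 had the largest difference of the family, with a log2 value of -1.31 (SE 0.103) and rank 4 among the falls of the table. KRT81 followed at -1.17 (SE 0.105). These were the 2 keratins among the 10 genes, 0.91% of the table, that were lower by at least 2-fold with an adjusted p below 0.05. KRT75 lay just outside that line at -0.92 (SE 0.155), and KRT6A at -0.87 (SE 0.253) had the widest error. KRT80 at -0.57 (SE 0.0508) and KRT6B at -0.53 (SE 0.156) had similar values, and KRT17 had the smallest difference at -0.20 (SE 0.0576). The median over the 7 genes was -0.87, the value of KRT6A, beside -0.14 over all 1099 genes. The latter pools 712 lower and 387 higher genes of a selected table, so nothing is read from this comparison. Selection by p-value also asks a larger difference of genes with few counts, such as KRT75 and KRT6A. This limits the comparison of sizes within the family. The fit was on counts, so the value of KRT6A also holds its difference in the ratio of count to TPM, described below. With limma on log2(TPM + 0.1) KRT6A was at -0.68.

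**Figure D2:**
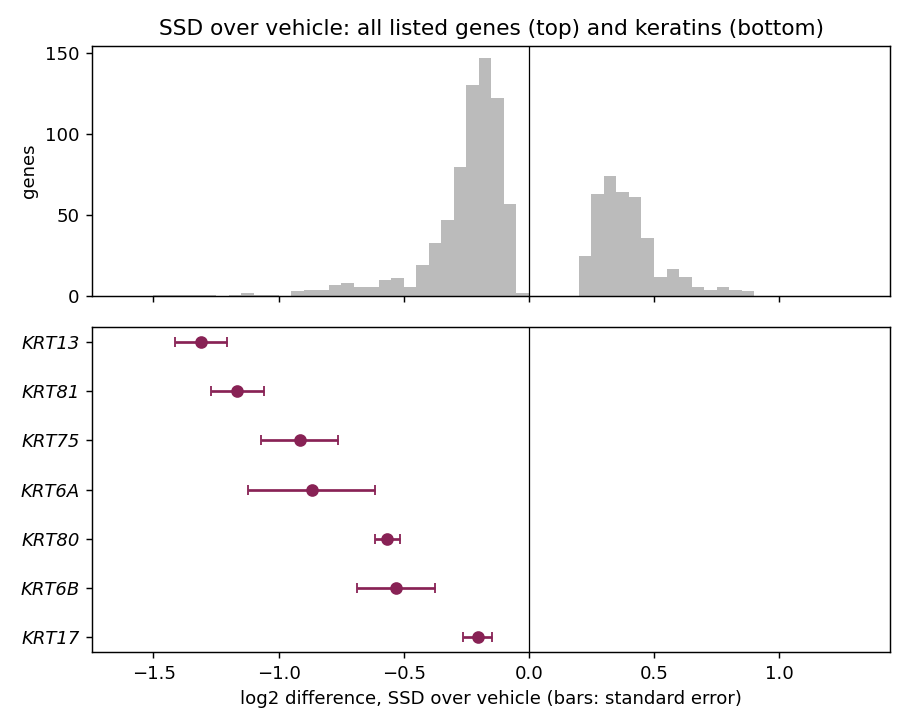
Top, number of genes (vertical axis) by log2 difference of SSD over vehicle for all 1099 listed genes. Bottom, the same quantity for the 7 keratins with its standard error, from KRT13 at -1.31 to KRT17 at -0.20. The upper panel has an empty stretch, with no gene between -0.04 and 0.20.

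The direction of the keratins did not depend on the scale, but the size of small differences did. The log2 difference of KRT17 was -0.13 with TMM factors and -0.11 with DESeq2's size factors, where it no longer passed the threshold. TMM factors gave 286 lower and 387 higher genes over the table, so that 42.5% of the calls were lower, against 60.1% with the scale used here. With the zero set at the middle of the empty stretch around 0, a scale chosen after seeing the data, 64.8% of the calls were lower and KRT17 had a log2 difference of -0.29. Without vehicle replicate 2, KRT6A was at -0.68 and did not pass the threshold. SSD replicates 1 and 3 moved the KRT6 genes most: without replicate 1 KRT6A was at -0.63 and KRT6B at -0.39, and without replicate 3 they were at -1.14 and -0.76.

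The division by type was also described within each library, where ratios do not depend on the scale between libraries. The summed level of the type I members was 192 ± 5.94 TPM under vehicle and 155 ± 7.97 TPM under SSD (SD, n = 3 each). That of the type II members was 188 ± 5.68 TPM under vehicle and 121 ± 8.36 TPM under SSD (SD, n = 3 each). The ratio of type II to type I was thus 0.927, 0.986 and 1.04 in the vehicle libraries and 0.751, 0.760 and 0.837 in the SSD libraries, with no overlap. These sums cover the keratins of the table only, and not the keratin content of the cells. KRT17 and KRT80 together made up 81.6% of the members' TPM under vehicle and 87.7% under SSD. The ratio of the types therefore rested mostly on them. The log2 ratio of KRT80 to KRT17 was -0.19 ± 0.136 under vehicle and -0.56 ± 0.0479 under SSD (SD, n = 3 each). KRT13, a type I member, had the largest fall of the family. As the members were selected on this contrast, nothing is read from these ratios about type. In bulk RNA, fewer cells that express a keratin and less of its RNA per cell cannot be told apart.

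**Figure D3:**
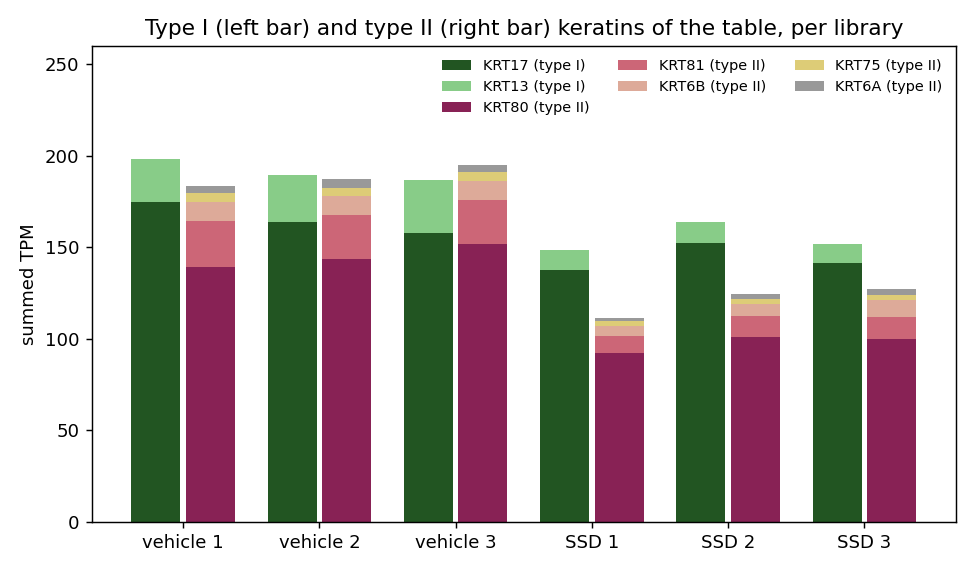
Summed TPM (vertical axis) of the type I (left bar of each pair) and type II (right bar) keratins of the table in each library, with segments for the genes. The bars of a pair are of about equal height under vehicle, and the type II bar is the shorter in all 3 SSD libraries.

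KRT13 and KRT81 had the largest differences of the family, and their levels were alike in both groups. The log2 ratio of KRT81 to KRT13 in TPM was 0.06, -0.13 and -0.30 under vehicle and -0.27, 0.06 and 0.19 under SSD. The groups overlapped, and the difference between their means, 0.12, was smaller than the SD within vehicle (0.181) or within SSD (0.236). KRT17 had the smallest difference of the family. The log2 ratio of KRT13 to KRT17 was -2.65 ± 0.225 under vehicle and -3.74 ± 0.0720 under SSD (SD, n = 3 each), with no overlap. The ratios of KRT81, KRT75 and KRT80 to KRT17 did not overlap between the groups either, and those of KRT6A and KRT6B did. These ratios follow from the differences by which the members were selected, and nothing is read from them about position or type. The log2 ratio of KRT6A to KRT6B was -1.33 ± 0.129 under vehicle and -1.48 ± 0.0656 under SSD (SD, n = 3 each), and its groups overlapped.

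The effective length that the counting used for a gene can be read from the ratio of its count to its TPM, and it moves with the mix of transcripts rather than with the level. This quantity was not used in choosing the members and was tested. KRT6B and KRT75 have 1 transcript each in GENCODE release 29, so a mix of the transcripts of that release cannot move it there. Their ranges of 0.0301 and 0.0303 on the log2 scale say nothing of the transcripts of that release. The authors' annotation may hold other transcripts, since 1085 of the 1099 table genes were matched to release 29. Among the genes with several transcripts, the log2 range over the 6 libraries was 0.0251 for KRT80, 0.0311 for KRT13, 0.0322 for KRT81 and 0.0338 for KRT17. Ranges of this size thus also occurred in KRT6B and KRT75 and are not specific to a gene. The ratio of count to TPM was also taken as a percentage of that of KRT6B in the same library. It ran from 93.45 to 93.54 for KRT75, 81.44 to 81.77 for KRT81 and 60.93 to 61.35 for KRT17. For KRT80 it ran from 176.55 to 177.74, and for KRT13, which varied most of these genes, from 69.44 to 71.12. For KRT13, a gene with 9 transcripts in that release, the log2 difference of SSD from vehicle was -0.01 (95% interval -0.0480 to 0.0204, limma adjusted p = 0.828). The exact two-sided permutation test gave p = 0.1, the smallest that 3 against 3 libraries allow, as all 3 SSD libraries lay below the vehicle libraries by a small amount. This order depended on how the libraries were centred. As a percentage of the listed gene length, centred on each library's median, the values were 109.0, 107.4 and 107.9 under vehicle. Under SSD they were 106.6, 109.5 and 107.5, so the groups overlapped, and nothing is read from this p. A shift in the mean transcript length of KRT13 larger than the bounds of the 95% interval was thus not seen. Transcripts of like length exchanged for each other would leave the quantity unmoved.

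KRT6A, with 5 transcripts in GENCODE release 29, had the widest range of the family. Relative to the vehicle mean, its log2 implied length was -0.21, 0.17 and 0.04 under vehicle and -0.39, -0.07 and -0.10 under SSD. Its range of 0.557 was wider than that of 97.6% of the listed genes. The groups overlapped, and the log2 difference was -0.19 (95% interval -0.505 to 0.132, limma adjusted p = 0.739, exact permutation p = 0.3). Replicate 1 was the lowest library in both groups. Among all genes tested, 0 genes or 0.0% had an adjusted p below 0.05 by limma, and 53 genes, or 4.82%, had an unadjusted p below 0.05.

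**Figure D4:**
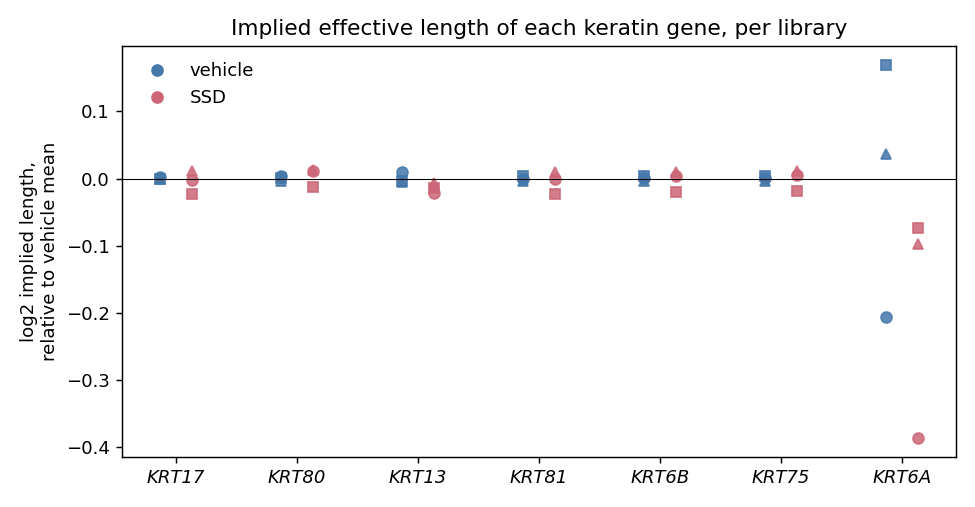
Log2 implied effective length relative to the vehicle mean (vertical axis) of each keratin in each vehicle (blue) and SSD (red) library, with the symbols of the replicates as in the plot of TPM. All points of 6 genes lie near 0, and those of KRT6A run from -0.39 to 0.17 with overlapping groups.

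The table genes whose pattern over the 6 libraries was nearest to each keratin were found by the Euclidean distance between log2 TPM values relative to the vehicle mean. For KRT13 these were ID3, at a distance of 0.386, KRT81 at 0.468, AQP1, a water channel, at 0.485, KRT75 at 0.696 and an unnamed gene. For KRT81 they were KRT13, LGALS7B, KRT75, LINC01411 and ABCA1, at distances of 0.468 to 0.627. For KRT75 they were ABCA1, POU2F3, CD274, ASS1 and GCNT3, at 0.297 to 0.365. For KRT6A they were TAGLN, KRT6B, CXCL8, GABRP and TMEM156, at 0.325 to 0.427, and for KRT6B TMEM156, MYLIP, an unnamed gene, TAGLN and CYCS, at 0.158 to 0.290. KRT80 lay nearest to DUSP1, EMP3, GRK5, ATP8B3 and MYH4, at 0.0981 to 0.224, and KRT17 to CKS2, EIF2A, IL18, SARNP and DDX47, at 0.0853 to 0.106.

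Keratin-related genes, grouped by textbook knowledge, were taken from 6 lists, of whose 142 names analysed here 18 were in the table. A place on a list does not show that a gene acts on keratins. Of these 18, 14 were lower and 2 higher under SSD with an adjusted p below 0.05, and 2, SOX9 and YWHAG, did not pass. The table was selected on this contrast, so these calls are read beside its shares of 53.0% lower and 35.2% higher. None of the 16 desmosome genes, which anchor keratin filaments at cell contacts, was in the table.

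The list of regulators of keratin gene transcription gave 10 table genes of 41 names, with 8 lower and 1 higher. The list was written with earlier results of these data known and includes ID1, ID2 and ID3. Nothing is read from its counts, and a role of its genes in the keratin differences was not tested. ID3, an inhibitor of basic helix-loop-helix factors, stood at 81.46, 74.26 and 75.96 TPM with vehicle, against 33.76, 31 and 25.7 TPM with SSD, and its log2 difference was -1.38 (SE 0.0967). Its relatives ID1, at -0.59 (SE 0.0883), and ID2, at -0.36 (SE 0.0867), fell as well. The epithelial transcription factors KLF4 at -0.38, KLF5 at -0.28 and EHF at -0.36 fell, as did the homeobox factor MSX2 and the AP-1 subunit FOSL1, both at -0.21. MSX2 passed the test in 13 and FOSL1 in 10 of 16 alternatives. CEBPB, a leucine zipper factor of epidermal differentiation, rose from 80.1 ± 8.01 to 113 ± 6.16 TPM (SD, n = 3 each).

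Of the cornified envelope and squamous differentiation genes analysed here, 4 were in the table and lower. SPRR2D, an envelope precursor, was lower at -0.45 (SE 0.154), although its libraries overlapped, with 93.66, 82.12 and 56.38 TPM with vehicle, against 59.96, 60.19 and 55.15 TPM with SSD. FLG, which bundles keratin filaments in the epidermis, was lower at -0.27 (SE 0.0960), and the calcium-binding S100A14 and S100A16 at -0.32 and -0.30. SPRR2D passed the test in 8 and FLG in 7 of 16 alternatives, and S100A14 and S100A16 in all 16.

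Among other intermediate filament genes, 2 of 15 were in the table and moved in opposite directions. VIM, the vimentin gene of mesenchymal cells, stood at 5.36, 7.5 and 4.32 TPM with vehicle, against 12.2, 9.44 and 10.01 TPM with SSD, a log2 difference of 0.75 (SE 0.129). NES, the nestin gene, was lower at -0.21 (SE 0.0619) and passed the test in 13 of 16 alternatives. Of 28 keratin-binding and filament-modifying genes the table held YWHAG and PNN, a desmosome-associated protein that was lower at -0.13 (SE 0.0541) and passed the test in only 3 of 16 alternatives.

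**Figure D5:**
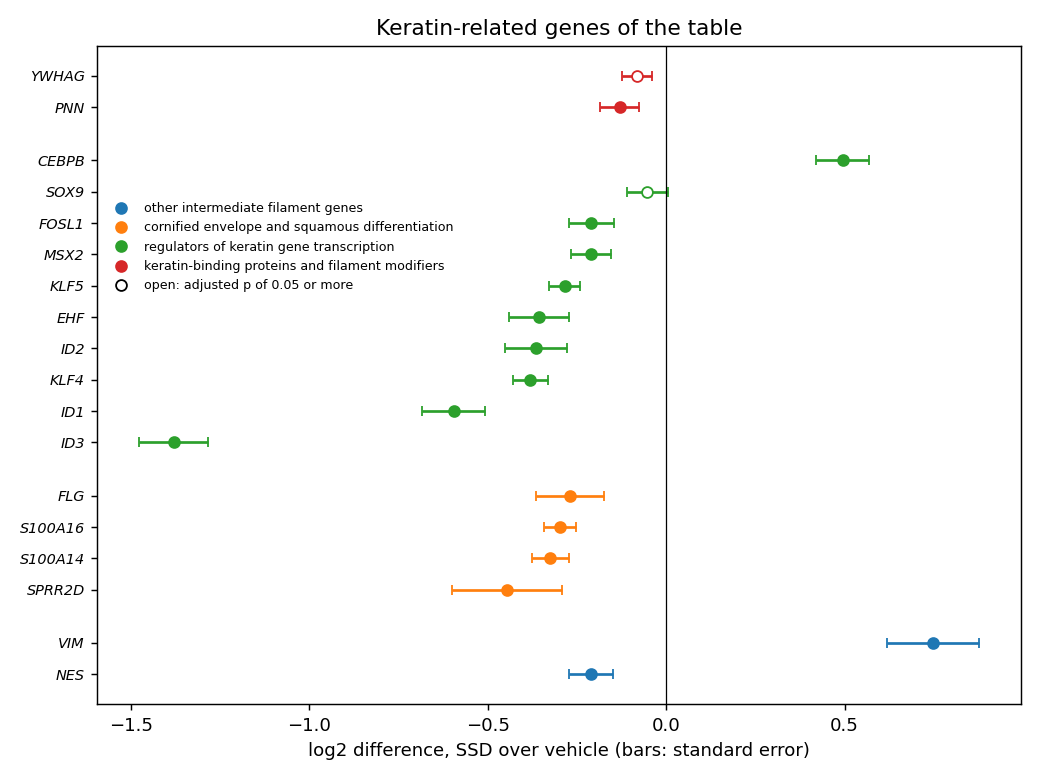
Log2 difference of SSD over vehicle (horizontal axis, bars for the standard error) of the 18 keratin-related genes of the lists, coloured by list. Open points mark SOX9 and YWHAG, whose adjusted p was 0.05 or more. ID3 at -1.38 and VIM at 0.75 are the ends of the range.

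The label of the cells was checked against markers as far as the table allows. Of 27 gastric and intestinal epithelial markers 4 were in it, and 4 were lower under SSD with an adjusted p below 0.05, beside 53.0% of the table, which was selected on this contrast: TFF1 at -0.76 (SE 0.152), REG4 at -0.70 (SE 0.164), CDH17 at -0.36 (SE 0.0597) and VIL1 at -0.34 (SE 0.0501). VIL1, the villin gene of brush borders, had 189.38 to 213.84 TPM under vehicle and 142.37 to 156.42 TPM under SSD. None of 12 prostate luminal markers and none of 8 immune markers was in the table, which for a selected table says nothing of their level. Of 8 fibroblast markers COL1A1 was in it, at 14.2 ± 1.48 TPM under vehicle and 12.3 ± 2.43 TPM under SSD (SD, n = 3 each). The part of these markers in the differences of the keratins was not tested.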

How the data were processed

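RNA-seq of 6 AGS libraries (3 vehicle, 3 SSD) was analysed by the authors on the Majorbio cloud platform. The submitters' processing notes name GRCh38.p13, and the aligner and counting program are not given in the sources used here. The authors deposited, per gene and library, estimated counts (33.5% not whole within 0.005) and TPM. The authors' p-values were read only to check how the table was selected, and their log2 fold changes and adjusted p-values were not used. Counts of the listed genes summed to 3084337 to 4640114 per library and held 30.1% to 33.1% of the TPM, so they are not library depth.

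Counts were rounded and fitted with edgeR 4.0.16 (glmQLFit, glmQLFTest, R 4.3.3), with library scales from the median of log(count/TPM), since TMM assumes that most listed genes are unchanged. P-values were adjusted by Benjamini-Hochberg over the 1099 genes, with a threshold of 0.05. Implied length, log2(count/TPM) minus the library median, was tested with limma 3.58.1 and, for the keratins, by exact permutation (scipy 1.17.1). The steps were tested on simulated data. Named genes were all keratins, the called genes of the lists, the 5 nearest patterns per keratin and table genes within 1 Mb. List counts leave out genes that are not reported here. The members and lists were chosen with earlier results of these data known. Alternatives were TMM, DESeq2 1.42.0, limma on log2(TPM + 1) and log2(TPM + 0.1), filters, a stricter adjustment, the replicate block and leaving out each library. The replicate numbers did not pair the libraries (correlations of deviations -0.23, -0.0092 and -0.032).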

Additional observations from a re-analysis of the deposited data

How the results depend on the processing

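All keratins had a lower SSD value under every alternative run. Their median log2 difference, -0.87, was -0.56 with limma on log2(TPM + 1), -0.68 on log2(TPM + 0.1) and -0.57 with a mean of at least 100 counts, which kept 5 keratins; leaving out each library gave -0.95 to -0.63. The number of keratins passing the threshold, 7, was 4 when p-values were adjusted as for 20000 genes, where KRT17, KRT6A and KRT6B were lost, and 6 to 7 when each library was left out. The lower genes of the table, 583, numbered 286 with TMM, 232 with DESeq2's size factors, 357 with library size alone, 215 with DESeq2's Wald test, 144 as for 20000 genes, 390 to 663 when each library was left out and 712 with zero at the middle of the gap. The higher genes numbered 387 in 13 of the 17 fits, and in each of these they were the same 387 genes, with a largest edgeR or DESeq2 adjusted p of 0.0456; no listed gene lay between -0.04 and 0.20 on the scale used here. The lower genes of the keratin-related lists, 14, numbered 8 with DESeq2's size factors, 8 with its Wald test, 6 as for 20000 genes and 11 to 15 when each library was left out. The difference between KRT81 and KRT13, 0.12, ran from 0.0214 without SSD replicate 3 to 0.250 without SSD replicate 1.

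For implied length, the number of genes passing was 0, and 0 to 1 when each library was left out. Values near 0 changed sign there: KRT17 ran from -0.0129 to 0.00399, KRT6B from -0.00806 to 0.00698, KRT80 from -0.00119 to 0.0114, KRT75 from -0.00703 to 0.00811 and KRT81 from -0.0117 to 0.00440. With the replicate number as a block, 525 genes of the table, 7 keratins and 13 list genes were lower; the numbers do not pair the libraries. KRT75 and KRT6A are limited by depth, with 30.16 to 144.43 estimated counts per library.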
